A study of Mus musculus with 4 samples.

Results

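The genes described here were the 24 keratins of the hair follicle and the 53 keratin-associated proteins (KAPs) with a row in the data, 77 of 24346 gene symbols. The rule took them by name: *Krt25* to *Krt28* and *Krt71* to *Krt75*, which are expressed in the inner root sheath and companion layer, the type I hair keratins *Krt31* to *Krt36*, *Krt39* and *Krt40*, the type II hair keratins *Krt81* to *Krt86*, and every symbol that starts with *Krtap*. *Krt87*, which the rule also names, was not analysed here.

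Hair keratins are intermediate filament proteins that pair as type I with type II chains in the cortex and cuticle of the growing hair shaft. KAPs form the matrix between these filaments and cross-link them through cysteine, or fill the matrix through glycine and tyrosine. The inner root sheath is the stiff tube around the shaft, and both are made only in growing (anagen) follicles, which cycle through growth, regression and rest. The keratins switch on before most KAPs as cells move up the follicle.

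RNA sequencing was performed on dorsal skin of male C57BL/6 mice, young adults when the diets began, in 2 groups of 2 libraries. Cont-IMQ mice received a NASH diet (high in fat and cholesterol, with bile salt) for 3 weeks, and 7KC-IMQ mice the same diet with added 7-ketocholesterol (7KC), a dietary oxysterol. All 4 libraries came from skin after 1 day of imiquimod (IMQ) cream, an agonist of Toll-like receptor 7 that induces psoriasis-like dermatitis, so no library of vehicle-treated skin was in the comparison. Nothing in the labels says whether a library is 1 animal or a pool, or where on the back the skin was taken. The comparison asks whether 7KC in the diet changed gene expression in the IMQ-treated skin. Values are FPKM (fragments per kilobase of exon, relative to all mapped fragments), a level per length, so that levels of different genes can be compared. The steps between low values gave an estimated 15000000 to 16180000 reads per library. Markers of keratinocytes were abundant in all 4 libraries, with summed FPKM from 15650 to 23590, as were those of fibroblasts (2345 to 3243).

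The 2 control libraries stood far apart in the genes described here, and the 7KC-IMQ libraries lay between them. The summed FPKM of the 77 members was 134 in Cont-IMQ replicate 1, 1845 in Cont-IMQ replicate 2, 495 in 7KC-IMQ replicate 1 and 433 in 7KC-IMQ replicate 2. Of the 73 members above 0 in any library, 72 were highest in Cont-IMQ replicate 2 and 1, *Krt84*, in 7KC-IMQ replicate 2. The remaining 4 (*Krtap13*, *Krtap20-2*, *Krtap5-1* and *Krtap9-5*) were listed at 0 throughout. In bulk skin, fewer follicle cells of a type and less RNA per cell cannot be told apart.

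The letters TATAAA, the core of a TATA box, were found upstream of most members that had a promoter in the reference, a feature that the rule did not use. Stretches of 100 bases upstream of the start site are shown for the most abundant type I and type II sheath keratins (*Krt25*, *Krt71*), for *Krtap8-1* and *Krtap11-1*, which were among the KAPs with the widest gap between libraries, and for *Krt75*, the keratin with the narrowest gap among those of the sheath and companion layer. They are RefSeq promoters of build GRCm38.p6, all on the minus strand and written 5′ to 3′, with the letters TATAAA in capitals. They lie at chr11:99322952-99323051, chr15:101743098-101743197, chr16:89487953-89488052, chr16:89571184-89571283 and chr15:101573905-101574004, in the order printed.
Krt25: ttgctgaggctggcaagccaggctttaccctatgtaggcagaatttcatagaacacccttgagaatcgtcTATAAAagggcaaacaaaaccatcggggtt
Krt71: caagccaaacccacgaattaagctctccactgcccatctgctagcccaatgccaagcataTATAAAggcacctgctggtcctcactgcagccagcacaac
Krtap8-1: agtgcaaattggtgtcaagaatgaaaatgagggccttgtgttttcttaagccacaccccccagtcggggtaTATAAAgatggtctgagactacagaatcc
Krtap11-1: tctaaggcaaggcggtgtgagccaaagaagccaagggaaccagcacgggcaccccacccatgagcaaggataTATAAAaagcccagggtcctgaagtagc
Krt75: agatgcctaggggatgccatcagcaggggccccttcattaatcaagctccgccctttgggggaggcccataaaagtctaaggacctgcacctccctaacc
In the first 4 the capitals begin 30, 40, 29 and 28 bases before the RefSeq start of transcription, and the stretch of *Krt75* does not hold these letters. Of the 65 members found in the RefSeq promoter table, 51 (78.5%) held TATAAA on either strand within 250 bases upstream, against 13.0% of the 27025 genes in the table. On the sense strand, lying whole within the stretch 40 to 21 bases before the start, it was found in 56.9% of members and 2.1% of all genes. By class, 13 of 17 keratin and 38 of 48 KAP promoters held it on either strand within 250 bases, and 9 of 17 and 28 of 48 at the sense position. The core of LEF/TCF sites, CTTTGA, was in 27.7% of members and 14.0% of all promoters, and TTTATTG, a HOX13-like core, in 0 of 65 members and 4.4% of all promoters. Members arose by duplication within clusters, so their promoters are not independent of each other, and a match of letters is not a binding site.

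The keratins of the inner root sheath and companion layer were the most abundant members. *Krt71*, the main type II keratin of the sheath, had an FPKM of 34.5 in Cont-IMQ replicate 1 and 503 in Cont-IMQ replicate 2, beside 135 and 112 in 7KC-IMQ replicates 1 and 2. *Krt25*, a type I partner, had 31.6 and 442 in the controls and 134 and 122 in 7KC-IMQ. *Krt27*, another type I sheath keratin, had 15.5 and 254, then 58.6 and 55.3. In each of these genes the 7KC-IMQ libraries differed little from each other and lay within the wide range of the controls, so the groups overlapped. *Krt75*, a keratin of the companion layer, had 9.35 and 38.3 in the controls and 18.7 and 17.2 in 7KC-IMQ. All 9 keratins of this class were lowest in Cont-IMQ replicate 1 and highest in replicate 2. The level in Cont-IMQ replicate 2 was 2.14 times (*Krt75*) to 6.11 times (*Krt26*) the 7KC-IMQ mean, with a median of 4.07. The 7KC-IMQ mean was in turn 1.92 times (*Krt75*) to 10.6 times (*Krt72*) the level in Cont-IMQ replicate 1, over the 8 genes with more than 3 estimated reads in each library. *Krt74*, annotated as a pseudogene in C57BL/6, was lowest at 0, 0.855, 0.176 and 0.238.

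**Figure D1:**
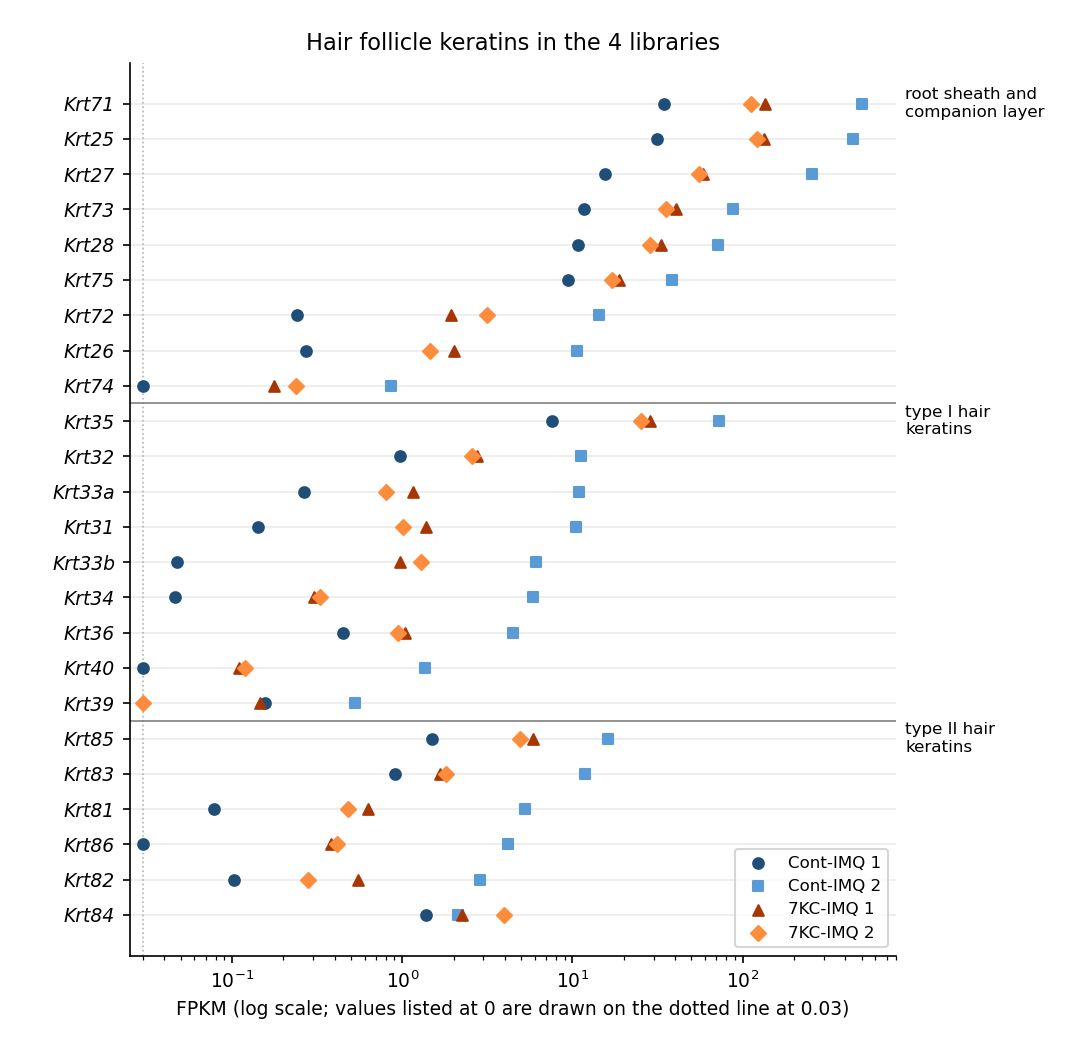
FPKM (log axis) of the 24 keratins in each library, by class and, within a class, by the level in Cont-IMQ replicate 2. Squares (Cont-IMQ replicate 2) lie farthest right for 23 keratins, circles (Cont-IMQ replicate 1) farthest left for 23, and the 7KC-IMQ symbols lie between them and close together, with *Krt84* and *Krt39* as exceptions.

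Type I hair keratins, the acidic chains of the shaft, were led by *Krt35*, which appears early in the matrix and cuticle. It had FPKM of 7.63 and 72.7 in the controls and of 28.5 and 25.2 in 7KC-IMQ. *Krt31*, a keratin of the cortex, had 0.142 and 10.6 in the controls and 1.37 and 1.01 in 7KC-IMQ. *Krt34* had 0.0465 and 5.87 in the controls and 0.304 and 0.330 in 7KC-IMQ, so that Cont-IMQ replicate 2 was 18.5 times the 7KC-IMQ mean against 2.71 times for *Krt35*. Over the 7 genes of the class with more than 3 estimated reads in these libraries the median was 5.35. *Krt31* and *Krt34* share sequence: 19.1% and 24.7% of their 75-base windows also occur in another gene, mainly each other, so their separate values are uncertain. *Krt39*, a keratin of the cuticle, was the exception in its class. It had 0.157 and 0.529 in the controls and 0.147 and 0 in 7KC-IMQ, both below the controls, and rested on at most 11.5 estimated reads in a library.

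Type II hair keratins, the basic chains, were led by *Krt85*, the early type II keratin of the shaft, with FPKM of 1.504 and 16.1 in the controls and of 5.85 and 4.89 in 7KC-IMQ. *Krt83* had 0.909 and 11.8 in the controls and 1.66 and 1.80 in 7KC-IMQ. *Krt86* had 0 and 4.19 in the controls and 0.381 and 0.413 in 7KC-IMQ, and shares 33.5% of its windows with other genes, mainly *Krt81*. In the 5 genes other than *Krt84* the groups overlapped as in the other classes. *Krt84*, a type II keratin known from the filiform papillae of the tongue and other hard epithelia as well as the hair, had 1.37 and 2.13 in the controls and 2.26 and 3.95 in 7KC-IMQ. Both 7KC-IMQ libraries were thus above both controls, by a mean of 3.10 ± 1.20 against 1.75 ± 0.539 (SD, n = 2 each), and Cont-IMQ replicate 2 was not the highest. The log2 fold change of *Krt84* was 0.56 (SE 0.26), which did not pass limma's test (adjusted p = 0.448).

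KAPs were lower than the keratins. The median difference between the controls was 1.89 log2 units for the 45 KAPs tested and 2.73 for the 24 keratins, on the log2(FPKM + 1) scale, which compresses low values. In sum KAPs had an FPKM of 6.41 in Cont-IMQ replicate 1, 257 in Cont-IMQ replicate 2, 22.9 in 7KC-IMQ replicate 1 and 13.98 in 7KC-IMQ replicate 2. Of the 53, 43 were listed at 0 in Cont-IMQ replicate 1, 4 in Cont-IMQ replicate 2, 24 in 7KC-IMQ replicate 1 and 27 in 7KC-IMQ replicate 2. More than 3 estimated reads, which for these short genes stand for an FPKM of 0.11 to 1.69, were reached by 2, 44, 19 and 12 KAPs in the same order. A value of 0 therefore says only that a gene was not detectable at this depth. KAPs were grouped by the composition of their coding sequence into 14 high-sulfur, 17 ultra-high-sulfur and 16 glycine-tyrosine-rich genes and 6 others.

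High-sulfur KAPs of the cortex were represented by *Krtap11-1*, with FPKM of 0.0814 and 18.9 in the controls and of 0.533 and 0.991 in 7KC-IMQ. *Krtap3-1* had 0.332 and 18.3 in the controls and 3.10 and 2.86 in 7KC-IMQ. In both, Cont-IMQ replicate 2 stood above every other library, at 24.8 times the 7KC-IMQ mean for *Krtap11-1* and 6.13 times for *Krtap3-1*. The class had a median of 7.55 over 7 genes. *Krtap3-2* had a pattern of its own, with 4.43 and 6.24 in the controls and 2.59 and 1.61 in 7KC-IMQ. It and *Krtap17-1* were the only KAPs with more than 3 estimated reads in Cont-IMQ replicate 1, and the means of *Krtap3-2* were 5.33 ± 1.28 and 2.10 ± 0.696 (SD, n = 2 each) with no overlap. Its log2 fold change was -1.04 (SE 0.23), with an adjusted p of 0.354 in limma. Since 27.1% of its windows also occur in other genes, mainly *Krtap3-3*, its reads may be split between copies.

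Ultra-high-sulfur KAPs, which fill cuticle and cortex cells with cysteine, were led by *Krtap17-1*, with FPKM of 0.471 and 7.02 in the controls and of 2.75 and 1.43 in 7KC-IMQ. *Krtap4-1* had 0 and 5.08 in the controls and 0.607 and 0.576 in 7KC-IMQ. *Krtap4-16* had 0 and 3.72, then 0.246 and 0.623. All 14 genes of this class that were tested had their highest level in Cont-IMQ replicate 2, and 11 were also lowest in replicate 1. Only 2 of them, *Krtap17-1* and *Krtap4-1*, had more than 3 estimated reads in both 7KC-IMQ libraries. For the rest, the order of the lower libraries is uncertain.

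Glycine-tyrosine-rich KAPs were led by *Krtap8-1*, with FPKM of 0.532 and 44.1 in the controls and of 2.98 and 1.08 in 7KC-IMQ, so that Cont-IMQ replicate 2 was 21.7 times the 7KC-IMQ mean. *Krtap22-2* had 0 and 13.0 in the controls and 0.364 and 0 in 7KC-IMQ. *Krtap19-5* was listed at 0 in every library except Cont-IMQ replicate 2, where it had 5.12, or 22.5 estimated reads. Altogether 18 KAPs were above 0 only in Cont-IMQ replicate 2, 11 of them of this class, and 14 of the 18 had more than 3 estimated reads there. Among the others, *Krtap7-1* had 0.159 and 36.5 in the controls and 2.53 and 0.484 in 7KC-IMQ. *Krtap15* was again listed at 0 outside Cont-IMQ replicate 2, where it had 6.62. The glycine-tyrosine-rich class also holds *Krtap5-2* and *Krtap5-3*, which reached its threshold through glycine with no tyrosine and whose cysteine, 34.6% and 35.1%, was also above the threshold of 30% for the ultra-high-sulfur class.

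**Figure D2:**
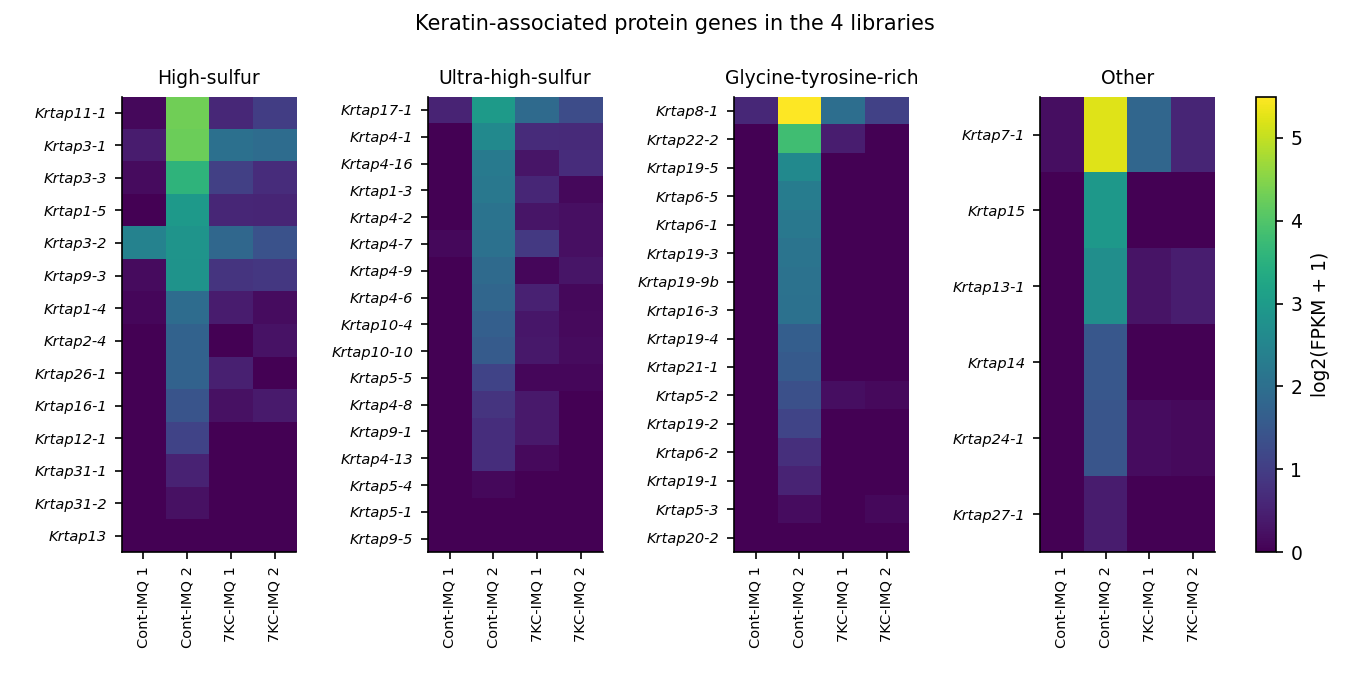
log2(FPKM + 1) of the 53 KAPs (rows) in each library (columns), in 4 classes by composition of the coding sequence and ordered within a class by the level in Cont-IMQ replicate 2. The column of Cont-IMQ replicate 2 is brightest in nearly every row, up to 44.1 FPKM for *Krtap8-1*, whereas *Krtap3-2* is bright in Cont-IMQ replicate 1 as well.

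The members lie in 5 clusters. On chromosome 11, between 99315516 and 100105626, 13 type I keratins and 22 KAPs lie side by side, with summed FPKM of 73.4 and 991 in the controls and of 279 and 250 in 7KC-IMQ. On chromosome 15, between 101459061 and 101802346, 10 type II keratins had 58.2 and 670 in the controls and 202 and 175 in 7KC-IMQ. The 23 KAPs on chromosome 16, between 88610705 and 89571183, had 0.772 and 160 in the controls and 7.16 and 3.02 in 7KC-IMQ. The smaller groups of KAPs on chromosome 10 (3 genes) and chromosome 7 (5 genes) were at 0 in Cont-IMQ replicate 1 and summed to 5.30 and 2.93 in replicate 2. Cont-IMQ replicate 2 had the highest sum in each of the 5 clusters. *Krt85* was not placed in a cluster.

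The difference between diets was tested in 69 members with a mean FPKM of at least 0.1, among 15896 genes. None of the 69 passed limma's test at an adjusted p of 0.05 and 1, *Krtap3-2*, had an unadjusted p under 0.05, against 0.00629% and 13.0% of all genes tested. The single gene past the adjusted threshold over all genes was *Mir24-2*, no member. Both 7KC-IMQ libraries were above both controls in 1 member (*Krt84*) and below both in 2 (*Krt39* and *Krtap3-2*), against 23.9% and 22.9% of all genes. These counts are limited by detection. Of the 77 members, 46 were at 0 in Cont-IMQ replicate 1 and so could not be lower in 7KC-IMQ without overlap. The spread between the controls gave the group differences wide errors: the log2 fold change was 0.10 (SE 1.24) for *Krt25*, -0.11 (SE 1.27) for *Krt71* and -1.53 (SE 1.64) for *Krtap8-1*. The mean on the log2 scale was lower in 7KC-IMQ for 64 members and higher for 5, against 8157 and 7739 of all 15896 genes. The median log2 fold change was -0.58, beside -0.0056 over all genes. For KAPs at 0 outside Cont-IMQ replicate 2 the lower mean was fixed, since they passed the FPKM filter through that library alone.

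Which control library was used set the direction. Without Cont-IMQ replicate 1, the 7KC-IMQ libraries were below the remaining control in 68 of 69 members (39.1% of all genes), and the median log2 fold change was -1.64. KAPs at 0 outside Cont-IMQ replicate 2 passed the FPKM filter through that library alone, so a lower 7KC-IMQ level was fixed for them. *Krt40* (0, 0.109 and 0.119 in the other libraries) and some other members near 0 there also passed only through Cont-IMQ replicate 2. The count of 68 was thus partly set by the filter. Without Cont-IMQ replicate 2, the 7KC-IMQ libraries were above the remaining control in 46 members (38.8% of all genes), and the median was 0.32. Members at 0 in Cont-IMQ replicate 1 could only be higher or tied there, so this rise was partly set by detection. In both cases no member passed the adjusted threshold in limma, with lowest adjusted p of 0.0803 and 0.191, and the lone control was assumed to vary as the 7KC-IMQ libraries do. *Krt84*, *Krt39* and *Krtap3-2*, whose groups did not overlap, could not change direction when a control was left out. Their log2 fold changes were 0.36, -0.51 and -1.24 without Cont-IMQ replicate 1 and 0.76, -0.11 and -0.83 without replicate 2. Leaving out either 7KC-IMQ library left the median at -0.64 or -0.54.

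**Figure D3:**
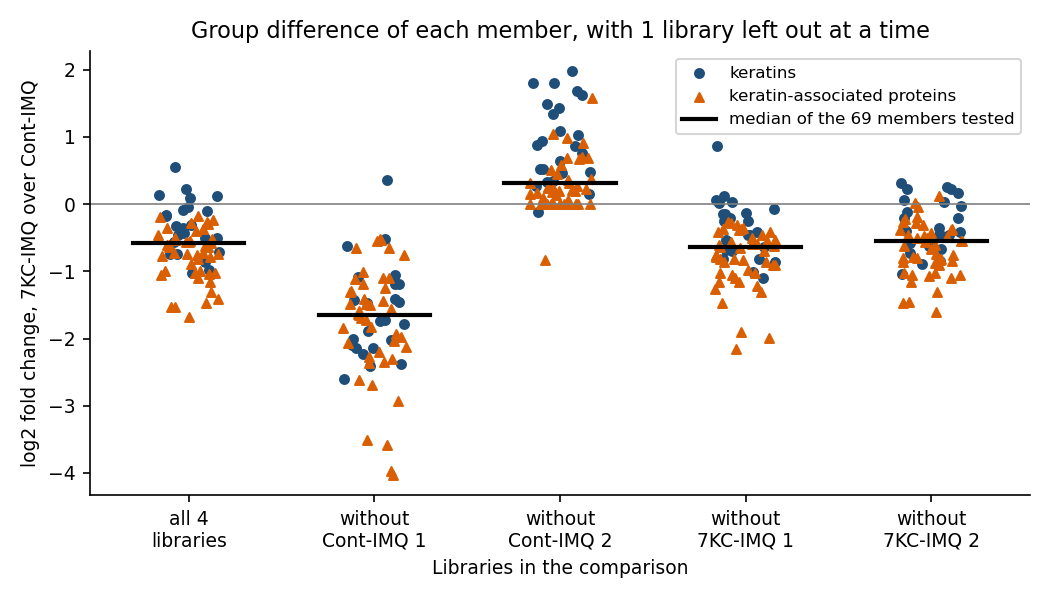
log2 fold change (7KC-IMQ over Cont-IMQ, log2(FPKM + 1)) of the 69 tested members with all 4 libraries and with each library left out, the bar being the median. The points lie mostly below 0 without Cont-IMQ replicate 1 (median -1.64) and mostly above 0 without replicate 2 (median 0.32).

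Cont-IMQ replicate 1 was lowest and replicate 2 highest in 45 of the 69 members (22 keratins and 23 KAPs), an order found in 8.85% of all genes tested. Most KAPs had 3 or fewer estimated reads in each library other than Cont-IMQ replicate 2, so their order among those libraries is uncertain. A level in Cont-IMQ replicate 2 at least 1 log2 unit above each other library was found in 58 members (20 keratins and 38 KAPs) and in 0.698% of all genes, that is 111 genes, of which the members made up 52.3%. No member stood that far above the rest in any of the other 3 libraries. KAPs at 0 outside Cont-IMQ replicate 2, and some members near 0 outside it such as *Krt40*, were among the genes tested only because of their level in that library. The median difference between the controls, replicate 2 minus replicate 1, was 2.12 log2 units over the members and 0.0013 over all genes. Between the 7KC-IMQ replicates the median over the members was -0.05, a signed value that includes members at 0 in both. The summed FPKM of the KAPs was 22.9 in 7KC-IMQ replicate 1 and 13.98 in replicate 2. With 2 libraries in a group, the difference between replicates could not be tested.

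**Figure D4:**
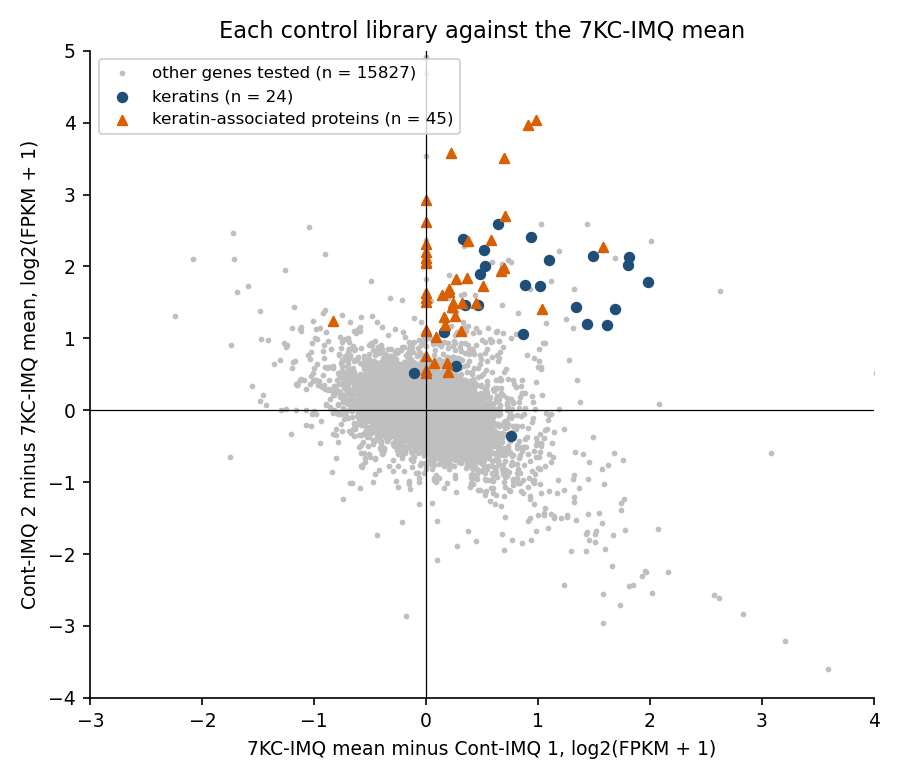
Each tested gene by the 7KC-IMQ mean minus Cont-IMQ replicate 1 (x axis) and Cont-IMQ replicate 2 minus the 7KC-IMQ mean (y axis), both in log2(FPKM + 1), with 17 other genes outside the axes. Most members lie in the upper part of the plot (median 1.64 on the y axis, beside 0.0038 over all genes) and overlap with other genes at its lower values, with *Krt84* below 0; keratins have a median of 0.88 and KAPs of 0.19 on the x axis, and both axes share the 7KC-IMQ libraries.

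Other genes of the hair programme were taken from a list of 30, all of which were tested. None passed limma's test after adjustment and 3 had an unadjusted p under 0.05, against 13.0% of all genes tested. Without overlap, 0 were higher and 6 lower in 7KC-IMQ, against 23.9% and 22.9% of all genes, and the median log2 fold change was -0.15. Cont-IMQ replicate 1 was lowest and replicate 2 highest in 19 of the 30, against 8.85% of all genes tested. Of the 9 partners of the shaft and sheath, 6 had this order. *Tchh* (trichohyalin, the cross-linked protein of the inner root sheath) had FPKM of 8.77 and 136 in the controls and of 31.6 and 29.3 in 7KC-IMQ. *S100a3*, a calcium-binding protein of the hair cuticle, had 8.70 and 157 in the controls and 25.1 and 25.6 in 7KC-IMQ. *Padi3*, the deiminase that modifies trichohyalin, had 0.883 and 13.2, then 3.15 and 3.01. These 3 genes followed the sheath keratins closely in the order of the libraries. *Mt4*, a metallothionein of differentiating squamous epithelia, did not. It had 101 and 52.1 in the controls and 19.8 and 21.2 in 7KC-IMQ. Its log2 fold change was -1.77 (SE 0.32, adjusted p = 0.352 in limma). *Tgm3* and *Padi1* did not have the order either. *Tgm3* was lowest in Cont-IMQ replicate 2, with 17.3 and 7.79 in the controls and 12.2 and 22.4 in 7KC-IMQ. *Padi1* had 1.22 and 2.93, then 0.682 and 1.26.

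The same order with a smaller spread was found in 8 of 12 transcription factors. *Hoxc13*, a homeobox factor required for hair keratin expression, had FPKM of 2.94 and 13.3 in the controls and of 6.42 and 5.38 in 7KC-IMQ. *Lef1*, the nuclear partner of beta-catenin in the hair matrix, had 1.38 and 7.04, then 3.42 and 2.66. *Msx2* had 3.55 and 12.9, then 6.42 and 5.92, and *Dlx3* 17.4 and 44.9, then 26.7 and 24.3. Over the 8 factors with the order, Cont-IMQ replicate 2 was 1.17 times (*Trps1*) to 2.32 times (*Lef1*) the 7KC-IMQ mean, with *Foxn1* (1.21) and *Cux1* (1.35) also at the low end. *Ovol1*, *Prdm1*, *Gata3* and *Sp6* did not have the order. Among 9 signals, 5 had it, such as *Shh*, secreted by the matrix, with 1.21 and 4.71 in the controls and 3.37 and 3.34 in 7KC-IMQ. *Sostdc1*, an inhibitor of BMP and WNT signals, had 18.6 and 18.2 in the controls and 11.5 and 10.2 in 7KC-IMQ, with controls that differed little. It had the lowest p of the list, 0.000883 before adjustment (log2 fold change -0.72, SE 0.09, adjusted p = 0.331 in limma). *Fgf22*, a ligand of the inner root sheath, had 11.1 and 7.61, then 3.74 and 5.01, and an adjusted p of 0.356 in limma.

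Markers of melanocytes, the pigment cells that sit in the matrix of growing follicles, moved with the members. All 8 of 8 were lowest in Cont-IMQ replicate 1 and highest in replicate 2, an order found in 8.85% of all genes tested. None was at 0, and their summed FPKM was 45.6 and 154 in the controls and 87.0 and 74.7 in 7KC-IMQ. None of the markers of keratinocytes (5), fibroblasts (4), skeletal muscle (7), adipocytes (5), sebaceous gland (6), dividing cells (5), red blood cells (3 tested) or neutrophils (4 tested) had the order. Keratinocyte and fibroblast markers had the opposite one in sum, with 23590 and 15650 for keratinocytes and 3243 and 2345 for fibroblasts in Cont-IMQ replicates 1 and 2. Sebaceous gland markers, which belong to the same pilosebaceous unit, summed to 474 and 370 in the controls and to 563 and 559 in 7KC-IMQ. All 5 dividing-cell markers were lowest in Cont-IMQ replicate 1, as were 3 adipocyte, 3 neutrophil and 1 sebaceous gland marker. No keratinocyte, fibroblast, skeletal muscle or red blood cell marker was, and 4256 of all 15896 genes tested were. The stage of the hair cycle in the sampled skin was not given, and its part in these differences was not tested.

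**Figure D5:**
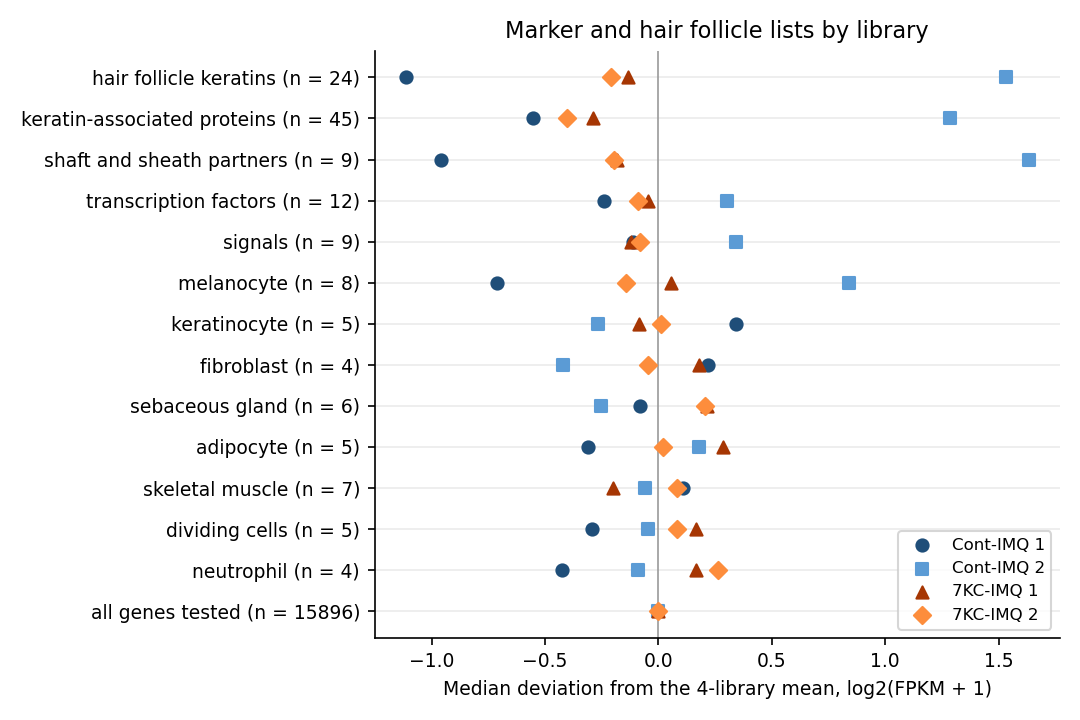
Median over each list of log2(FPKM + 1) minus the gene's mean over the 4 libraries (x axis), by library, for the members, the parts of the hair list, markers of other cells and all genes tested. Cont-IMQ replicate 2 stands to the right and replicate 1 to the left for keratins (1.53 and -1.11), shaft and sheath partners (1.63 and -0.96) and melanocyte markers (0.84 and -0.71).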

How the data were processed

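RNA sequencing of IMQ-treated dorsal skin was deposited as 1 table of FPKM for each of 4 libraries. The authors mapped single-end reads of 75 bases to mm10 and computed FPKM with Cufflinks. The submitters' processing notes list TopHat2 2.1.1, Bowtie2 2.2.8, SAMtools 0.1.18 and Cuffdiff 2.2.1; the methods of the study name other versions for some of these. No counts were used, and how reads matching several genes were assigned is not given in the sources used here. The sample labels gave the group and the replicate number.

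log2(FPKM + 1) was compared between groups without further scaling by limma 3.58.1 (lmFit, eBayes with a variance trend) in R 4.3.3 in genes whose FPKM averaged at least 0.1, with Benjamini-Hochberg adjustment over all 15896 of them. Fold changes on this scale understate those of low genes. Nothing says that replicates are separate animals, so p-values measure only the spread between these libraries. The members and lists were chosen with earlier results of these data known, so no list test was made.

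Read numbers were estimated from the steps between low FPKM values, with fragments of 200 bases (SD 80); 72.5% to 75.4% of low genes were within 0.1 of a whole read, against 20.0% by an even spread. Genes were matched to GENCODE M21 (GRCm38) by symbol (76 of 77), and promoters are from RefSeq (65 of 77). KAP classes had been planned from a protein table but were taken from GENCODE coding sequences: glycine plus tyrosine of at least 35%, otherwise cysteine of at least 30% (ultra-high-sulfur) or 10% (high-sulfur). All keratins and list genes could be named, and KAPs by highest mean FPKM in a class, lowest p or largest change without overlap; other genes named were chosen after their values were seen. Scripts were tested on simulated data.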

Additional observations from a re-analysis of the deposited data

How the results depend on the processing

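No member passed an adjusted p of 0.05 in limma under any of the alternatives: a pseudocount of 0.1, a minimum mean FPKM of 1 or none, 3 other scalings, no variance trend, the replicate block, members with under 10% shared windows, and each library left out. The replicate numbers share only a number (correlation 0.07 over genes between the groups' replicate differences, from 2 pairs); with the replicate block the median change of the members stayed at -0.58 and 0 members were called. Counts followed the number of members tested: Cont-IMQ replicate 2 was highest in 36 of 37 members whose FPKM averaged at least 1 and in 45 of 46 with under 10% shared windows, where 1 member each was lower in 7KC-IMQ without overlap. A pseudocount of 0.1 widened the median difference between the controls to 4.38 log2 units and turned *Krt85* to 0.09. Leaving out 1 library moved members without overlap from 1 to 46 (higher) and from 2 to 68 (lower), and calls in the hair list from 0 to 1 (*S100a3*, without Cont-IMQ replicate 1). The log2 fold changes then ranged from -1.78 to 1.98 for *Krt25*, -2.02 to 1.81 for *Krt71*, -1.06 to 0.87 for *Krt75*, -2.41 to 0.93 for *Krt31*, -1.41 to 1.69 for *Krt35*, -1.43 to 1.34 for *Krt85*, -3.97 to 0.91 for *Krtap8-1*, -3.51 to 0.69 for *Krtap11-1* and -2.12 to 1.69 for *Tchh*, the lowest without Cont-IMQ replicate 1 and the highest without replicate 2. Of 144 alternative values of 12 named genes, 12 reversed and 0 passed an adjusted p of 0.05 (lowest 0.0932). With 3 or fewer estimated reads for most KAPs in 3 libraries, differences among those libraries were not detectable.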

Other observations

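Of the 111 genes with Cont-IMQ replicate 2 at least 1 log2 unit above each other library, 58 were members, 6 were in the hair list and 47 were neither. The genes named here were chosen after their values were seen. Among the 47, the largest excess was in the small RNA genes *Snora26*, *Snora3*, *Snora16a* and *Mir8091*, each at 0 in the other libraries. Their read numbers were not estimated, and in short genes few reads can give a high FPKM. *Gm10229*, *Gm11559* and *Gm11562*, also among the 47, share windows with the members *Krtap6-1*, *Krtap9-1* and *Krtap2-4*. *Prr9*, a proline-rich protein gene, had FPKM of 6.07 and 144 in Cont-IMQ replicates 1 and 2 and of 27.6 and 27.3 in 7KC-IMQ, the same order and a similar spread as *Tchh*. *Crym*, which encodes a thyroid hormone-binding crystallin, had 0.993 and 20.1 in the controls and 3.89 and 3.21 in 7KC-IMQ. *Crnn* (cornulin), of the same gene family as trichohyalin, had 1.46 and 18.8, then 5.81 and 4.59. *Vsig8* had 0.570 and 8.56, then 1.75 and 2.23. *Trpm1* and *Slc24a5*, which melanocytes express, were also among the 47, with *Trpm1* at 0.790 and 9.23, then 3.73 and 2.84. *Atf3*, a stress-induced transcription factor, had 54.1 and 135 in the controls and 23.9 and 60.3 in 7KC-IMQ, and here the 7KC-IMQ libraries differed from each other as well. In the other libraries, genes that stood this far above the rest numbered 15 in Cont-IMQ replicate 1, 7 in 7KC-IMQ replicate 1 and 20 in 7KC-IMQ replicate 2, and none was a member.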
